A study of Mus musculus with 36 samples.

Results

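Myc and genes of ribosome biogenesis, 38 in all, were followed through an azoxymethane and dextran sulfate sodium (AOM-DSS) protocol that gives mice colon tumors. The 38 genes were chosen by name, with earlier results of these data known, as were the further gene lists used below. Their counts set beside the shares of all genes are therefore descriptions. For each, the brightest probe set, by its mean intensity, was taken among those assigned to 1 gene symbol. Such a probe set was found for 35 of the 38, out of 17097 genes measured. Gnl3, Mybbp1a and Tsr1 had no probe set of 1 symbol and were not analysed here. The other 35 all entered the tests, because no filter on low values was applied. Ncl and Wdr75 had mean intensities of 11 and just under 16, close to the median of an array, which lay between 14 and 16. For these genes a change may therefore go unseen.

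Gene expression was measured in whole colon tissue, as 1 array per sample, in wild-type mice (WT) and in knockout mice (KO) without the IL-17 receptor subunit IL-17RC. Each genotype had 4 untreated arrays labelled healthy at day 0, 4 arrays at day 7, 4 at day 15 and 6 labelled tumor at day 63. The labels give the mice an age of 6 to 8 weeks in every group, day 0 and day 63 alike. No group was untreated at day 63, so tumor, treatment and passage of time cannot be told apart. The protocol was an injection of the carcinogen AOM before 3 cycles of DSS, an irritant of the gut lining, given at 3% for 5 days per cycle and replaced by plain water for 14 days. The untreated mice received neither, and the labels name both agents for all other groups. They repeat the whole protocol for day 7, day 15 and tumor alike. If days count from its start, day 7 and day 15 come too early for 3 such cycles. The labels give neither the knockout allele, the strain, the cells that make up a tumor sample nor whether replicates are separate mice. In such bulk tissue, fewer cells of a type and less RNA per cell cannot be told apart.

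Ribosomes are assembled in the nucleolus. RNA polymerase I copies the ribosomal DNA into a long precursor, small nucleolar ribonucleoproteins (snoRNPs) modify it, and a succession of assembly factors cuts and folds it into the small and the large subunit. Myc is a transcription factor that binds E-boxes as a dimer with Max. Many genes of ribosome biogenesis are known targets of Myc, and Myc is itself a target of the Wnt pathway that is overactive in colon tumors.

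Most of the genes rose in the tumor samples of both genotypes. In WT, 22 of the 35 rose against untreated colon and 0 fell, where 12.6% of all genes rose and 10.2% fell. In KO 22 rose and 1, Utp20, fell, where 10.8% of all genes rose and 9.92% fell. No gene of the 35 was called between KO and WT at any stage, although Myc at day 7 and Ddx21 at day 15 came close and passed in some alternative settings. At day 7 and day 15 nearly all of them stayed uncalled against untreated colon, while proliferation genes fell steeply at day 7.

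Windows of known promoters are shown because Myc and Max bind the E-box CACGTG, and also its variant CACGCG. Promoters of 300 bases, from 250 before to 50 after a transcription start (RefSeq, GRCm38.p6), were searched on both strands; CACGTG reads the same on both, and CACGCG reads CGCGTG on the other. Of the 35 genes, 29 had 1 or more promoters in that table, 33 promoters in all. CACGTG was found in 4 of the 33 promoters (12.1%), against 7.15% of all 32851 promoters. CACGCG was found in 9 of the 33 (27.3%), against 9.27% of all. The 9 belong to 8 genes, because the same Noc2l site was counted in overlapping promoters of that gene. The promoters compared were not matched for base composition. In sum 11 of the 29 genes held a motif and only Pes1 held both, at separate places. A match is a description of these letters and not a site shown to be bound. The 4 windows with CACGTG, and the CACGCG windows of Nolc1 and Nhp2, which are among the genes that rose most in tumors, read as follows on the gene's strand, with the motif in capitals.
Nop2: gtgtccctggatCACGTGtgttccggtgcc
Pes1: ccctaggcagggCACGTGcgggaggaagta
Utp20: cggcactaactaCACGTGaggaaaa
Wdr43: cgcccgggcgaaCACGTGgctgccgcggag
Nolc1: gcaggatgatgaCGCGTGtgggaccggaag
Nhp2: ggaggcggcggcCGCGTGgttcctctatgc
The Nop2 window is at chr6:125131811-125131840 on the plus strand, and its motif begins 60 bases before the start. The Nolc1 window is at chr19:46075810-46075839 on the plus strand, with the motif beginning 25 bases before the start. In the other windows the motif begins between 3 and 38 bases after the start. They are at chr11:3963965-3963994 (plus strand) for Pes1, chr10:88826765-88826789 (minus strand) for Utp20, chr17:71616220-71616249 (plus strand) for Wdr43 and chr11:51619764-51619793 (plus strand) for Nhp2. Among these 6 genes, Utp20 is the one that fell in KO tumors, and the other 5 rose in tumors of 1 or both genotypes. Nolc1 and Nhp2 were picked for their rise, so their rise is no separate result here. The CACGCG windows of Bysl, Ddx21, Noc2l, Nop10, Nop16 and Pes1 are not shown. Of these genes, Bysl, Ddx21 and Nop10 rose in tumors of both genotypes, Pes1 rose in KO alone, and Noc2l and Nop16 were called in neither.

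Before any comparison, Il17rc served as the check of the genotype labels. Its intensity lay between 248 and 330 in untreated WT colon and between 7 and 15 in untreated KO colon. A pair of arrays labelled KO day 7 went against their label, replicate 1 with 331 and replicate 2 with 44, where the other KO arrays lay between 7 and 15. Both also carried squamous epithelium markers, which colon lacks: Krt5 was 4230 and 1006 there. In all, 7 arrays had Krt5 above 100: untreated WT replicates 1 and 4 (6043 and 2199), WT day 7 replicates 1 and 4 (817 and 205), these 2 KO arrays and KO tumor replicate 2 (436). Counts of called Myc and ribosome biogenesis genes are given with and without these arrays for tumor and for day 7 against untreated colon. The same was done for day 15 against day 7 and for KO against WT at day 15. Each single call of these genes that is lost without the arrays is also given. Most other counts, among them those of all further gene lists, are given with all arrays only. Epcam, a marker of epithelium, lay between 5268 and 7330 over all 36 arrays.

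Myc had its highest group means in the tumor samples. Its deposited intensity, in arbitrary units on a linear scale, was 183, 133, 80 and 234 on the 4 untreated WT arrays. It was 118, 100, 91 and 94 at WT day 7 and 90, 121, 164 and 114 at WT day 15. On the 6 WT tumor arrays it ran from 231 over a median of 346.5 to 400. A single untreated array, at 234, overlapped the lowest tumor array. Untreated KO colon had 172, 150, 140 and 141, KO day 15 had 180, 124, 131 and 130, and the 6 KO tumor arrays ran from 220 over a median of 311 to 335. The KO tumor and untreated arrays did not overlap. A single array outside the tumor groups was higher than all of them, KO day 7 replicate 1 with 402, which is an array that goes against its Il17rc label.

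**Figure D1:**
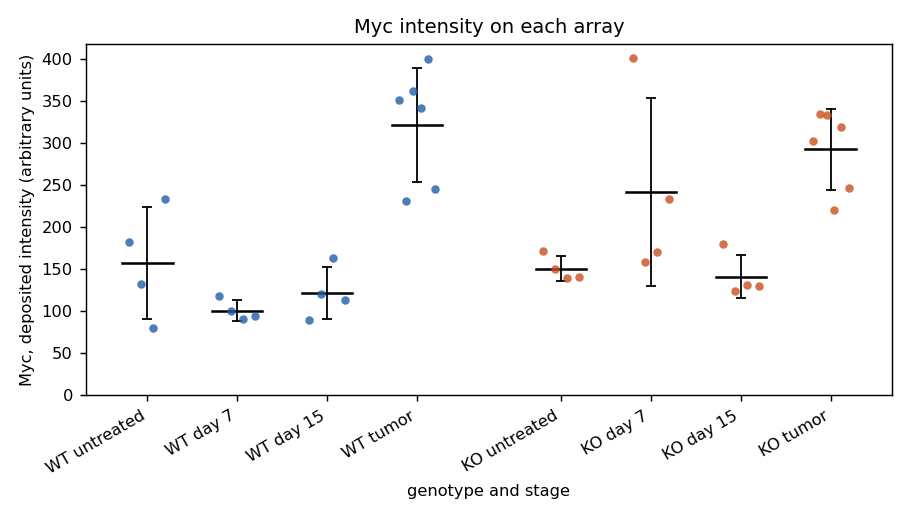
Deposited Myc intensity (vertical axis, arbitrary units, linear from 0) by genotype and stage (horizontal axis). Each point is 1 array, the thick line is the mean and the bars are ± 1 SD; the WT tumor arrays lie between 231 and 400, the KO tumor arrays between 220 and 335, and 1 KO day 7 array at 402.

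Against untreated colon of the same genotype, Myc rose by 1.10 ± 0.23 on the log2 scale (SE of the limma model; 2.15-fold, adjusted p = 0.000794) in WT tumors. In KO tumors it rose by 0.94 ± 0.23 (1.92-fold, adjusted p = 0.00358). The rise in KO less the rise in WT was -0.16 ± 0.33, with a 95% interval from -0.84 to 0.51. Without the 7 arrays with Krt5 above 100, the rise was 1.59 in WT and 0.90 in KO, and both were called. The WT value then rests on untreated replicates 2 and 3 alone. Among the WT arrays, replicate 3 of the untreated group, the lowest at 80, mattered most: without it the WT rise was 0.84 (adjusted p = 0.011).

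At day 7 Myc differed most between the genotypes. The KO day 7 arrays had 402, 159, 171 and 234, all above the highest WT array at 118, and the 402 is from replicate 1. The log2 difference KO minus WT was 1.08 ± 0.26 and missed the threshold (limma adjusted p = 0.0566). Without both arrays labelled KO day 7 with high Il17rc it was 0.89 ± 0.28 (adjusted p = 0.193). It passed in 11 of the 49 alternative settings, for example without WT day 7 replicate 1, where the adjusted p was 0.0175. Against untreated KO colon, KO day 7 stood 0.62 ± 0.26 higher, which was not called (adjusted p = 0.115).

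In WT tumors, 22 of the 35 genes rose, while 12.6% of all 17097 genes were called higher. None fell by the limma test, where 10.2% of all genes were called lower; at an unadjusted p under 0.05, 29 of the 35 were higher and 1 was lower, where 18.9% and 15.4% of all genes were. The median log2 difference of the 35 was 0.54, against 0.02 over all genes. In KO tumors, 22 of the 35 rose against 10.8% of all genes, and 1 fell against 9.92% of all genes. Their median was 0.55, against 0.01. The 2 comparisons share no arrays: 18 genes rose in both, 4 (Bop1, Noc4l, Rrp1b and Rrp9) were called in WT alone and 5 (Npm1, Pes1, Polr1a, Wdr12 and the falling Utp20) in KO alone. For none of these 9 was the difference between the genotypes called. The 8 genes called in neither were Dkc1, Ncl, Nob1, Noc2l, Nop16, Polr1b, Rrp12 and Wdr75.

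Dim genes are seldom called, and 33 of the 35 had a mean intensity of 16 or more. Among the 10937 genes at or above 16, tested alone, 19.6% were called higher in WT tumors and 17.7% in KO tumors, and 24 of the 33 rose in each genotype. For 10 of the 35 all 6 WT tumor arrays lay above all 4 untreated WT arrays, as for 7.53% of all genes. For 22 of the 35 all KO tumor arrays lay above the untreated KO arrays, as for 10.2% of all genes. Without the 7 arrays with Krt5 above 100, 25 rose in WT and 18 rose and 1 fell in KO. KO tumor replicate 2 had the highest mean of the 35 genes of any array, and without it 15 rose and 1 fell in KO, with a median of 0.43.

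**Figure D2:**
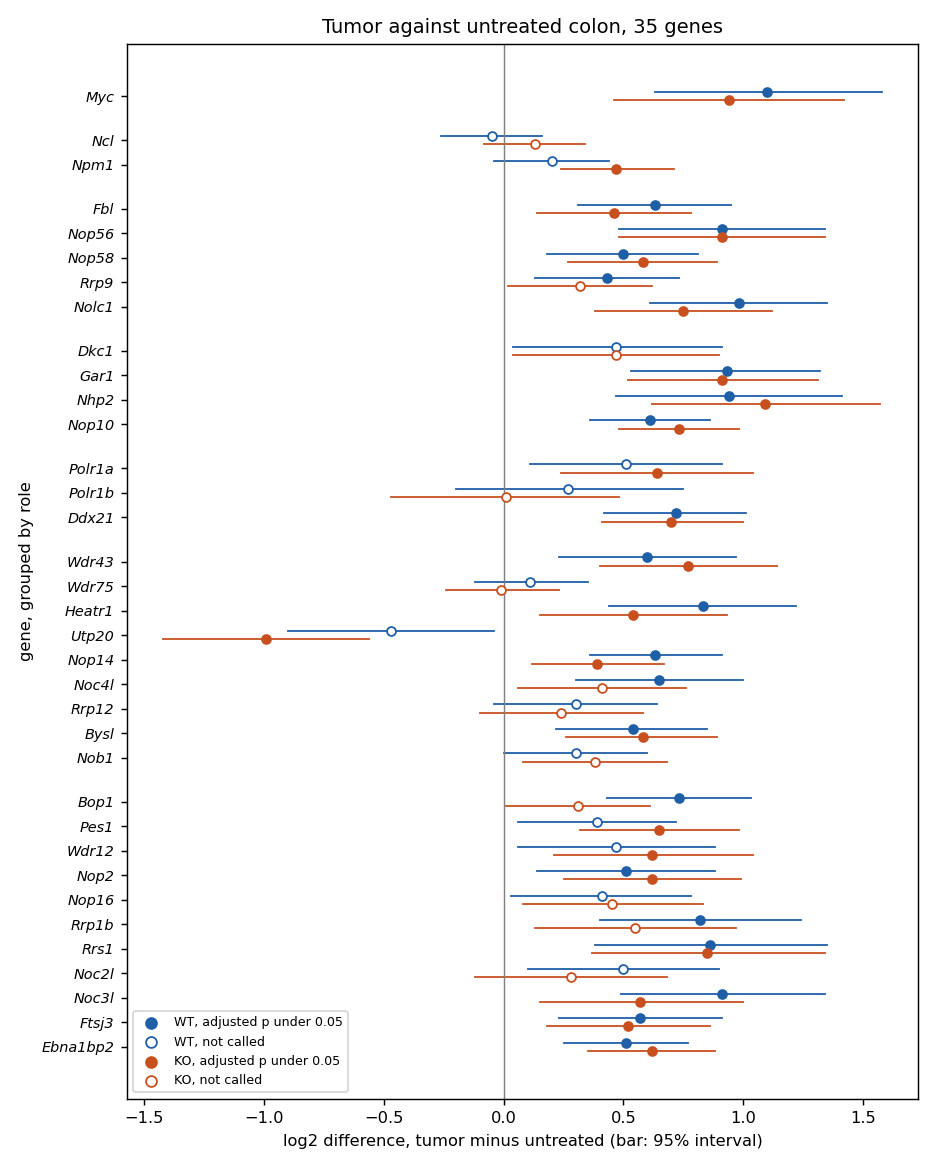
Log2 difference of tumor minus untreated colon (horizontal axis) for each of the 35 genes (vertical axis, grouped by role), in WT (blue) and KO (orange). Points are limma estimates, filled where the adjusted p is under 0.05, and bars are 95% intervals; nearly all points lie above 0, and Utp20 lies below 0 in both genotypes, at -0.47 in WT and -0.99 in KO.

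The counts for each role, here and below, stand beside 12.6% of all genes that rose in WT tumors and 10.8% in KO tumors. The shares that fell were 10.2% and 9.92%. Of the 5 box C/D genes, whose particles guide methylation of ribosomal RNA, all 5 rose in WT tumors and 4 in KO tumors, with medians of 0.63 and 0.58. Nop56, a core protein of these particles, had 468, 255, 232 and 302 in untreated WT colon and 242, 288, 355 and 343 in untreated KO colon. In tumors it ran from 391 over a median of 588 to 667 in WT, and from 473 over 522.5 to 863 in KO. Only the WT arrays overlapped, through untreated replicate 1 at 468. Nop56 rose by 0.91 ± 0.21 in WT (1.88-fold, adjusted p = 0.00185) and by 0.91 ± 0.21 in KO (adjusted p = 0.00198). Nolc1, a chaperone of snoRNP assembly, had 162, 97, 78 and 124 in untreated WT and 171 to 266, with a median of 224, in WT tumors, so the groups did not overlap. In KO it had 117, 118, 134 and 132 untreated and 171 to 316, with a median of 201.5, in tumors, again without overlap. Its rise was 0.98 ± 0.18 in WT (1.97-fold, adjusted p = 0.000179) and 0.75 ± 0.18 in KO (1.68-fold, adjusted p = 0.00277).

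Fbl, the methyltransferase of the box C/D particles, rose by 0.63 in WT and 0.46 in KO, and Nop58, its core partner, by 0.50 and 0.58. Rrp9, a protein of the particle that directs precursor cleavage, rose by 0.43 in WT and stood 0.32 higher in KO, which was not called (adjusted p = 0.131). The calls of Fbl in KO and of Rrp9 in WT were each lost in 8 of 49 alternatives, that of Rrp9 also without the Krt5-rich arrays (0.40, adjusted p = 0.138).

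Of the 4 box H/ACA genes, whose particles convert uridine of ribosomal RNA to pseudouridine, 3 rose in each genotype, with medians of 0.77 in WT and 0.82 in KO. Nhp2 had 719, 310, 329 and 452 in untreated WT colon and 370, 391, 410 and 413 in untreated KO colon. Its tumor arrays ran from 569 over 827 to 1047 in WT and from 694 over 800.5 to 1126 in KO. A single untreated WT array, replicate 1 with Krt5 of 6043, reached the tumor range. Nhp2 rose by 0.94 ± 0.23 in WT (adjusted p = 0.00307) and by 1.09 ± 0.23 in KO (2.14-fold, adjusted p = 0.000766), the largest rise of the 35 genes in KO. Gar1 had 237, 197, 145 and 263 in untreated WT and 253 to 477, with a median of 404, in WT tumors. In KO it had 174, 202, 160 and 237 untreated and 287 to 519, with a median of 345.5, in tumors. The groups overlapped by 1 array in WT, where the lowest tumor array had 253 and the highest untreated array 263, and not in KO. It rose by 0.93 ± 0.19 in WT (adjusted p = 0.000702) and by 0.91 ± 0.19 in KO (adjusted p = 0.000837). Nop10 rose by 0.61 and 0.73. Dkc1, the pseudouridine synthase itself, stood 0.47 higher in each genotype without passing the threshold (adjusted p = 0.108 in WT and 0.121 in KO).

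Of the 2 nucleolar chaperones, 0 rose in WT tumors and 1 in KO tumors. Npm1, nucleophosmin, had 2656, 2285, 2341 and 2617 in untreated WT colon and 2111 to 3104, with a median of 2853, in WT tumors, so the groups overlapped. In KO it had 2470, 2346, 1750 and 1998 untreated and 2629 to 3228, with a median of 2837, in tumors, without overlap. Npm1 rose by 0.47 ± 0.12 in KO (adjusted p = 0.00319) and stood 0.20 ± 0.12 higher in WT, which was not called. The difference between these 2 rises, 0.27 with a 95% interval from -0.06 to 0.61, was not called either. The Ncl probe set, for nucleolin, read 8 to 15 on all 36 arrays and carries no information on that gene.

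RNA polymerase I and its factors were represented by 3 genes, of which 1 rose in WT tumors and 2 in KO tumors. Ddx21, an RNA helicase of the nucleolus, had 118, 92, 92 and 99 in untreated WT and 107, 115, 111 and 105 in untreated KO colon. Its tumor arrays ran from 140 over 165 to 184 in WT and from 154 over 174 to 266 in KO, all above the untreated arrays. Ddx21 rose by 0.72 ± 0.14 (1.65-fold, adjusted p = 0.000464) and by 0.70 ± 0.14 (1.63-fold, adjusted p = 0.00059). Polr1a, the largest subunit of the enzyme, had 62, 52, 40 and 54 in untreated WT and 49 to 94, with a median of 79.5, in WT tumors. In KO it had 43, 36, 51 and 47 untreated and 53 to 106, with a median of 72, in tumors. The groups overlapped in WT and not in KO. It rose by 0.64 ± 0.20 in KO (adjusted p = 0.0179) and stood 0.51 ± 0.20 higher in WT (adjusted p = 0.0574). Polr1b, the second largest subunit, stood 0.27 higher in WT and 0.01 higher in KO, neither called.

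Of the 9 measured genes of the small subunit, 5 rose in WT tumors, and in KO tumors 4 rose and 1 fell. Heatr1, a factor that couples transcription to early processing, had 131, 73, 58 and 86 in untreated WT and 130 to 184, with a median of 140, in WT tumors. In KO it had 85, 92, 106 and 108 untreated and 107 to 219, with a median of 149.5, in tumors. The groups just overlapped in both genotypes. Its rise was 0.83 ± 0.19 in WT (adjusted p = 0.00187) and 0.54 ± 0.19 in KO (adjusted p = 0.0409). With the mean of all its probe sets, the other ones being dim, the estimates were 0.23 and 0.12 and neither was called. The KO call was lost in 11 of 49 alternatives in all, among them the fit without the arrays with Krt5 above 100 (0.43, adjusted p = 0.0617), the fit of only the groups compared, and the omission of any one of the 4 untreated KO arrays or of KO tumor replicate 2, 3 or 4. Wdr43, of the same early complex, rose by 0.60 and 0.77. Nop14 rose by 0.63 and 0.39, and Bysl, a factor of late maturation, by 0.54 and 0.58. The KO call of Nop14 was lost in 8 of 49 alternatives, and without the Krt5-rich arrays it stood at 0.29 (adjusted p = 0.123). Noc4l, a partner of Nop14, rose by 0.65 in WT and stood 0.41 higher in KO, not called. The endonuclease Nob1 stood 0.30 and 0.38 higher and the export factor Rrp12 0.30 and 0.24 higher, all uncalled.

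Utp20, a large scaffold protein of the small subunit precursor, ran the other way. It had 225, 323, 277 and 334 in untreated WT colon and 379, 448, 329 and 331 in untreated KO colon. In tumors it ran from 181 over 198.5 to 282 in WT, overlapping the untreated arrays, and from 130 over 197 to 240 in KO, below all untreated arrays. It fell by 0.99 on the log2 scale in KO tumors, with a standard error of 0.21 and an adjusted p of 0.000835, which is 1.99-fold lower. In WT tumors the log2 difference was -0.47 ± 0.21 (adjusted p = 0.108). The difference between the genotypes, -0.52 with an interval from -1.13 to 0.09, was not called. The KO fall was called in all 49 alternatives. Utp20 has 1 probe set here, so no other reading of the gene was at hand.

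**Figure D3:**
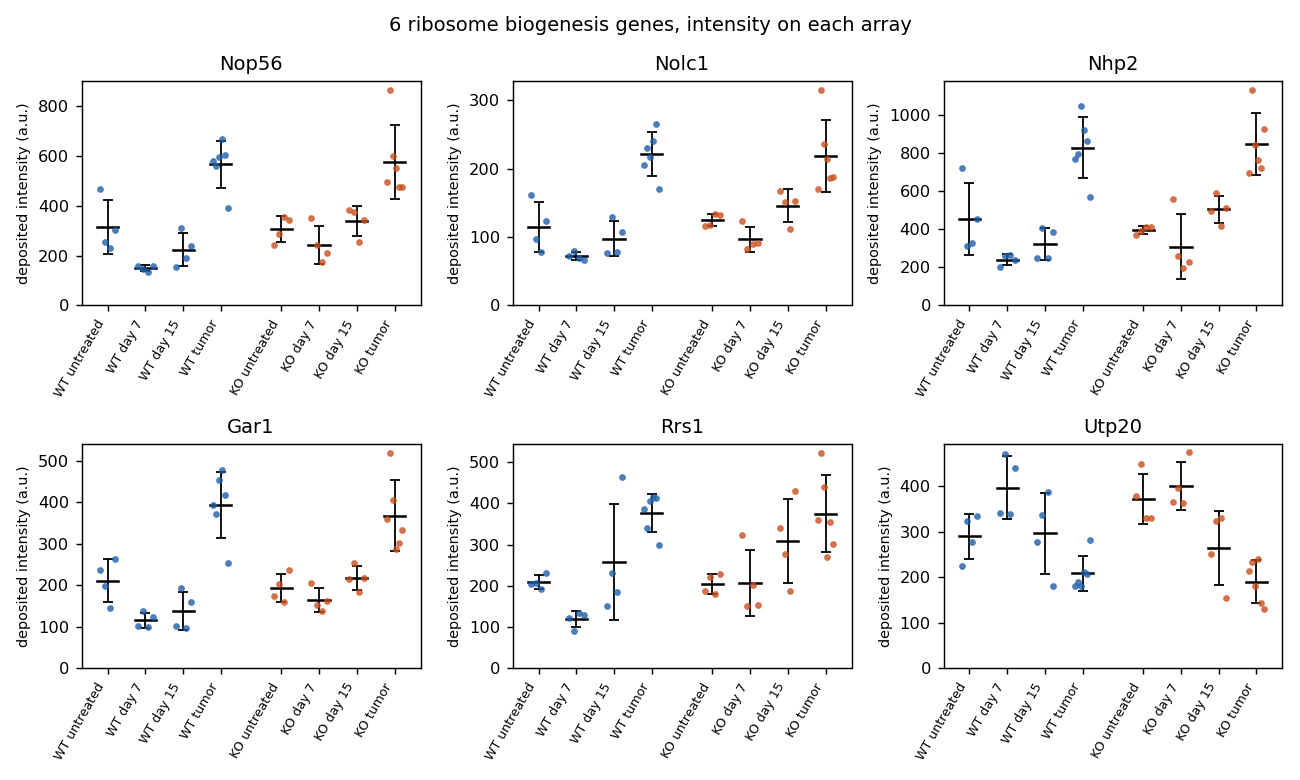
Deposited intensity (vertical axes, arbitrary units, linear from 0) of Nop56, Nolc1, Nhp2, Gar1, Rrs1 and Utp20 on each array, by genotype and stage (horizontal axes). Points are arrays, thick lines means and bars ± 1 SD; the first 5 genes have their highest group means in tumors, with WT tumor medians of 588, 224, 827, 404 and 396.5, and Utp20 has its lowest, with a WT tumor median of 198.5.

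For the large subunit, 7 of 11 measured genes rose in WT tumors and 7 in KO tumors, with medians of 0.51 and 0.57, and all 11 were above 0 in each genotype. Rrs1, which helps dock a small ribonucleoprotein onto the precursor, had 204, 207, 191 and 231 in untreated WT and 188, 221, 179 and 229 in untreated KO colon. In tumors it ran from 300 over 396.5 to 415 in WT and from 269 over 357 to 523 in KO, without overlap in either genotype. Rrs1 rose by 0.86 ± 0.24 (1.82-fold, adjusted p = 0.00815) and by 0.85 ± 0.24 (1.81-fold, adjusted p = 0.00919). Noc3l had 34, 36, 27 and 32 in untreated WT and 35 to 84, with a median of 65, in WT tumors. In KO it had 48, 46, 37 and 50 untreated and 46 to 93, with a median of 71.5, in tumors. The groups overlapped at their edges in both genotypes. Its rise was 0.91 ± 0.21 in WT (1.88-fold, adjusted p = 0.0016). In KO it was 0.57 ± 0.21 (adjusted p = 0.0474), a call that was lost in 26 of 49 alternatives, with 0.50 and an adjusted p of 0.112 without the Krt5-rich arrays.

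Bop1, Pes1 and Wdr12 form one complex of large subunit assembly. Bop1 rose by 0.73 in WT and stood 0.31 higher in KO, uncalled. Pes1 rose by 0.65 and Wdr12 by 0.62 in KO, and they stood 0.39 and 0.47 higher in WT, uncalled. The KO call of Wdr12 was lost in 6 of 49 alternatives, among them the one without the Krt5-rich arrays (0.52, not called). The interval of the genotype difference in the tumor rise ran from -0.85 to 0.01 for Bop1 and from -0.20 to 0.72 for Pes1, so the 3 are not shown to respond differently. The methyltransferases Nop2 (0.51 in WT and 0.62 in KO) and Ftsj3 (0.57 and 0.52) rose in both genotypes, as did Ebna1bp2 (0.51 and 0.62). The WT call of Nop2 was lost in 10 of 49 alternatives, and that of Ftsj3 in 4 in KO and 1 in WT. Rrp1b rose by 0.82 in WT and stood 0.55 higher in KO (adjusted p = 0.0555). Noc2l and Nop16 were called in neither.

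At day 7, 1 of the 35 genes was called lower in WT against 1.35% of all genes, and 0 higher against 0.304%. That gene, Nop56, had 159, 147, 133 and 159, below all untreated WT arrays, and fell by 0.91 on the log2 scale (1.88-fold lower, limma adjusted p = 0.0311). Its call was lost without the arrays with Krt5 above 100 (log2 difference -0.66, adjusted p = 0.45). That fit keeps only replicates 2 and 3 of untreated WT and of WT day 7, so its estimates are less precise. It was also lost without untreated replicate 1 (adjusted p = 0.187). At an unadjusted p under 0.05, 15 of the 35 were lower and 1 was higher, where 6.33% and 6.39% of all genes were. Of the 35 estimates 26 were below 0, with a median of -0.35. For 16 of the 35 all WT day 7 arrays lay below all untreated arrays, as for 4.71% of all genes. Without the arrays with Krt5 above 100 the median was -0.05. Utp20 was the 1 gene with all WT day 7 arrays (338 to 471) above all untreated WT arrays, and it was not called.

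In KO at day 7, 1 gene fell against 6.58% of all genes and 0 rose against 5.64%. That gene was Ftsj3, at 91, 56, 48 and 52 against 99, 85, 92 and 96 untreated, lower by 0.55 on the log2 scale (limma adjusted p = 0.0422). Its highest array is replicate 1. The call was lost in 12 of 49 alternatives (adjusted p up to 0.187), among them the omission of any one untreated KO array. Without both arrays labelled KO day 7 with high Il17rc, 4 genes fell and the median moved from -0.11 to -0.29. At an unadjusted p under 0.05, 2 were higher and 3 lower, where 12.6% and 12% of all genes were.

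At day 15, 0 of the 35 were called in either genotype by limma. In WT, 2.1% of all genes were called higher and 1.28% lower, and in KO 0.491% higher and 0.322% lower. At an unadjusted p under 0.05, 1 was higher and 11 lower in WT, where 8.79% and 8.66% of all genes were. In KO 1 was higher and 2 lower, where 7.95% and 8.45% of all genes were. The medians were -0.20 in WT and 0.10 in KO.

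Between these 2 stages, averaged over the genotypes, day 15 against day 7 gave 6 genes higher and 3 lower, where 13.4% of all genes were called higher and 14.8% lower. The 6 were Nop56, Nhp2, Npm1, Rrp12, Rrs1 and Ftsj3, at 0.25 to 0.69. Of 49 alternatives, the call was lost in 22 for Nop56, 10 for Npm1, 10 for Rrp12, 7 for Nhp2 and 3 for Ftsj3. That of Rrs1 held in all. Nob1 fell by 0.61, Utp20 by 0.62 and Polr1b by 0.48. The call of Polr1b was lost in 19 of 49 alternatives. One of them, at -0.39, left out the pair of KO day 7 arrays that go against their label. The count was unsteady: with each array centred on its median, 15 rose and 2 fell, and without the arrays with Krt5 above 100 12 rose and 3 fell. With only the groups compared 1 rose and 3 fell, and without the fourth day 15 array of both genotypes 2 rose and 2 fell. From day 15 to tumor, 30 of the 35 rose, against 17.9% of all genes, and 1 (Utp20, by -0.43) fell, against 13.9%. Their median was 0.65, against 0.01 for all genes. Myc had the largest rise, 1.27 ± 0.17 (2.41-fold, adjusted p = 5.8e-07), ahead of Gar1 at 1.17, Nop56 at 1.09 and Nhp2 at 1.08. Day 15 and tumor arrays also enter the comparisons above, so these values are no separate support for them.

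KO and WT were then set side by side at each stage, which asks whether loss of the receptor subunit moves these genes. In untreated colon 0 of the 35 were called by limma, where 1.79% of all genes were higher and 0.485% lower in KO. At an unadjusted p under 0.05, 2 were higher and 0 lower, where 6.77% and 6.01% of all genes were. At day 7 there were 0 calls, where 0.0877% of all genes were higher and 0.211% lower, and 8 were higher and 0 lower at an unadjusted p under 0.05, where 5.91% and 5.59% of all genes were. The day 7 median was 0.18, with 30 of 35 estimates above 0. Without both arrays labelled KO day 7 with high Il17rc it was 0.08, with 19 above 0. At day 15 there were 0 calls, where 0.17% of all genes were higher and 0.0526% lower. In tumors there were 0 calls, where 0.0117% of all genes were higher and 0.0409% lower, and 0 of the 35 had an unadjusted p under 0.05 in either direction, where 1.19% of all genes did upward and 1.29% downward. The median difference between KO and WT tumors was -0.03, and the 95% intervals of single genes reached from -0.62 to 0.55 at the widest.

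At day 15 the genes leaned upward in KO without a call. Of the 35, 31 were higher in KO than in WT, with a median of 0.31 against -0.01 for all genes. At an unadjusted p under 0.05, 15 were higher and 1 lower, where 6.16% and 3.91% of all genes were. For 7 of the 35 (Ddx21, Dkc1, Nhp2, Npm1, Noc2l, Noc3l and Noc4l) all KO arrays lay above all WT arrays, as for 3.2% of all genes. Ddx21 was nearest to a call: it had 77, 99, 89 and 81 in WT and 151, 149, 117 and 144 in KO, a log2 difference of 0.62 ± 0.16 (limma adjusted p = 0.0948). The proliferation list leaned the same way, with a median of 0.93 and 0 of 19 called. WT day 15 replicate 1 had the lowest mean of the 35 genes of any array and also the lowest proliferation mean at that stage, and without it the medians were 0.24 and 0.60. The part of proliferation in the lean of the 35 genes was not tested.

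**Figure D4:**
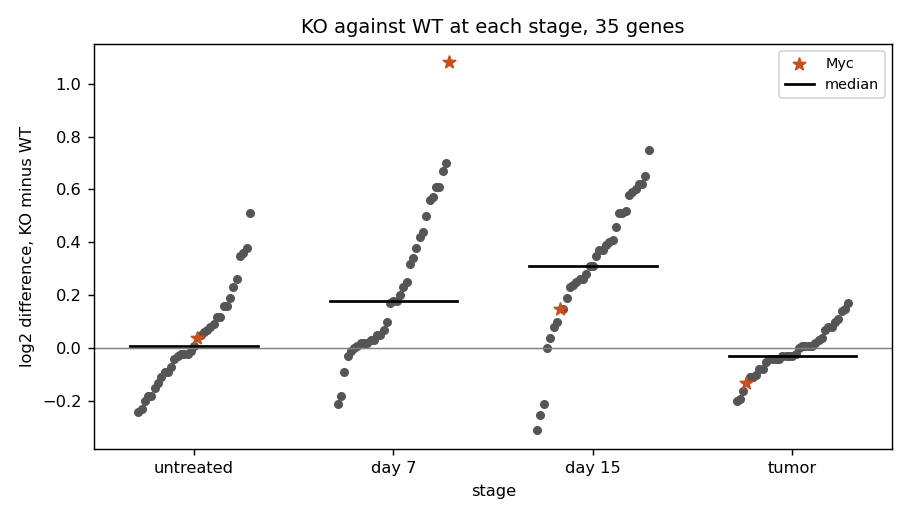
Log2 difference of KO minus WT (vertical axis) for each of the 35 genes at each stage (horizontal axis). Points are genes in rising order within a stage, the star is Myc and the line is the median: 0.01 in untreated colon, rising to 0.18 (day 7) and 0.31 (day 15), and -0.03 in tumors.

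The interaction of genotype and stage, the change from untreated in KO less that in WT, was called for 0 of the 35 genes at day 7 (2.37% of all genes), day 15 (0.0819%) and tumor (0.784%), by limma. At an unadjusted p under 0.05, 3 were higher and 0 lower at day 7, where 7.35% and 8.14% of all genes were. At day 15, 7 were higher and 1 lower, where 3.45% and 4.14% of all genes were, and in tumors 0 were either, where 3.57% and 4.67% of all genes were. The median interaction in tumors was -0.01. With the Krt5-rich arrays left out it was -0.23, and the day 7 median went from 0.20 to -0.21. Without untreated WT replicate 3, Myc passed at day 7 (interaction 1.31, adjusted p = 0.0334), where it otherwise had 1.04 and an adjusted p of 0.13.

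Other genes of the pathway give the setting. In tumors 12.6% of all genes rose and 10.2% fell in WT, and 10.8% rose and 9.92% fell in KO. Of 33 other small subunit factors, 15 rose and 0 fell in WT tumors, and 14 rose and 0 fell in KO tumors, with medians of 0.34 and 0.37. Utp18, Pno1, Ltv1 and Mphosph10 stood first, with rises of 0.69 to 0.88. Of 33 other large subunit factors, 15 rose in WT and 18 in KO and 0 fell, with medians of 0.36 and 0.40, led by Nip7, Rsl24d1, Rsl1d1 and Ddx18. Of 11 other genes of RNA polymerase I, 3 rose and 1 fell in WT, and 4 rose in KO. Twistnb and Polr1e, both subunits, rose in both genotypes, while the subunit Polr1d fell by 0.40 in WT and stood 0.12 higher in KO.

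Cytoplasmic ribosomal proteins, the building blocks that these factors assemble, had small differences. Of 57 measured, 1 rose in WT tumors and 9 in KO tumors, where 12.6% and 10.8% of all genes rose, and 0 fell, with medians of 0.04 and 0.09. From day 15 to tumor 20 rose and 1 fell, where 17.9% and 13.9% of all genes did, with a median of 0.08. Rpsa rose by 0.18 in WT and 0.15 in KO, and Rps15 by 0.24 in KO. The median of their mean intensities was 5270 on the deposited scale, and how far such bright probe sets are compressed was not tested.

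Among the relatives and partners of Myc, 2 of 11 rose and 2 fell in WT tumors, and 3 rose and 3 fell in KO tumors. Of all genes, 12.6% rose and 10.2% fell in WT, and 10.8% rose and 9.92% fell in KO. With so few genes the list is not set apart from all genes, and those named have its smallest p. Mycn, a paralog of Myc, had 17 to 26 in untreated WT colon and 29 to 81 in WT tumors, 16 to 20 in untreated KO colon and 33 to 70 in KO tumors, without overlap. It rose by 1.36 ± 0.22 (adjusted p = 3.8e-05) and 1.31 ± 0.22 (adjusted p = 6.9e-05). Mycl, another paralog, rose by 1.24 ± 0.31 in WT (adjusted p = 0.00401) and rose in KO as well (adjusted p = 0.00544). Mxd1, which competes with Myc for Max, fell by 1.54 in WT and by 2.14 in KO. The Mxd1 arrays read 737 to 1028 in untreated WT colon and 135 to 560 in WT tumors, and 1280 to 1663 and 166 to 632 in KO. Mlxip fell by 0.49 and 0.70. Of 27 other known Myc targets of metabolism and growth, 11 rose in WT, and in KO 15 rose and 1 fell, with medians of 0.36 and 0.41. Cdk4, a kinase of the cell cycle, rose by 1.08 and 1.17, and Ctps, a pyrimidine synthesis enzyme, by 1.15 and 1.39. Paics, of purine synthesis, and the chaperonin Hspe1 rose in both genotypes as well.

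Of 19 proliferation genes, 11 rose in WT tumors and 6 in KO tumors, where 12.6% and 10.8% of all genes rose, with medians of 0.70 and 0.50. Mcm4, a helicase subunit of replication, Pcna, the sliding clamp, and Rrm2, which makes deoxyribonucleotides, rose in both genotypes. Mcm6 rose by 1.09 in WT and stood 0.53 higher in KO (limma adjusted p = 0.051). These genes were named for their smallest p, and the list did not move as one. Mki67, of the same list, had a median of 704.5 in untreated WT colon and 595.5 in WT tumors. In KO its medians were 702.5 and 592, and the arrays overlapped in both genotypes. At day 7, 18 of 19 fell in each genotype, with medians of -1.72 and -1.53, where the 35 genes stood at -0.35 and -0.11. Of all genes, 1.35% fell in WT and 6.58% in KO at that stage. From day 7 to day 15 all 19 rose, where 13.4% of all genes rose, with a median of 1.18, where the median of the 35 was 0.16.

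Cell-type markers also moved in tumors, where 12.6% of all genes rose and 10.2% fell in WT, and 10.8% rose and 9.92% fell in KO. All 10 smooth muscle markers fell in WT tumors and 9 of 10 in KO tumors, with medians of -1.92 and -1.53. Their summed intensity, with Acta2 the brightest, lay between 26319 and 31983 in untreated WT colon and between 7924 and 22168 in WT tumors; in KO it lay between 21784 and 23792, and between 2510 and 19266. Of 14 colon epithelium markers, led by Lgals4, 2 rose and 3 fell in WT tumors and 2 rose and 6 fell in KO tumors. Their summed intensity lay between 43353 and 60031 in untreated WT and 45410 and 52378 in WT tumors, and between 57232 and 59839 and between 44017 and 51714 in KO. Of 8 neutrophil markers, with S100a9 the brightest, 3 rose in WT and 5 in KO tumors, and their summed intensity overlapped in WT, with 102 to 3840 untreated and 1812 to 7675 in tumors. In KO it lay between 97 and 119 on untreated KO arrays and between 2446 and 7663 in KO tumors. Of 11 squamous markers, 1 fell in WT tumors, and 0 of 8 fibroblast markers changed in either genotype, nor did any of 9 lymphocyte markers in KO tumors, while 5 of those 9 rose in WT tumors. Cd4 and Cd8a among the lymphocyte markers and Col1a2 among the fibroblast markers had means below 16. The lowest intensity in the data was 4, so no marker was at 0. WT tumor replicate 6 had the most Myh11, a smooth muscle myosin, of the WT tumors (1419), and the lowest mean of the 35 genes among them. Without WT tumor replicate 6, 26 of the 35 rose in WT, with a median of 0.61. Among the KO tumors, replicate 2 had the highest mean of the 35 genes (7.95 on the log2 scale) and the least Myh11 (117), while replicate 1 had the most Myh11 (1667) and a mean of 7.32, where the lowest KO tumor mean was 7.30. The part of tissue composition in the rise of the 35 genes was not tested.

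**Figure D5:**
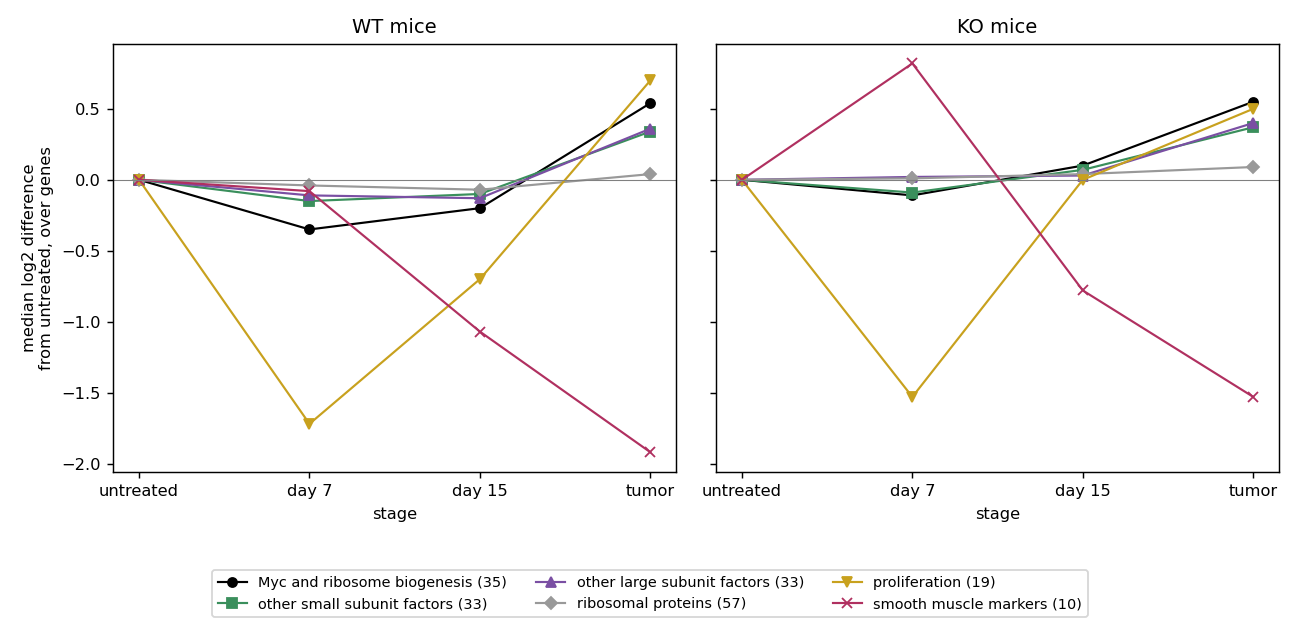
Median log2 difference from untreated colon (vertical axis) over the genes of 6 lists at each stage (horizontal axis), in WT (left) and KO (right), with the number of measured genes in brackets. The 35 genes end at 0.54 and 0.55 in tumors, the ribosomal proteins at 0.04 and 0.09, and proliferation genes dip to -1.72 and -1.53 at day 7.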

How the data were processed

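The members and lists were chosen with earlier results of these data known. Each of the 36 arrays (Affymetrix HT MG-430 PM) came as 1 column of whole-number intensity values for 45037 probe sets, deposited by the authors on a linear scale. The sources used here do not say how these deposited intensities were summarised or normalized. All values were transformed to log2(intensity + 1) and quantile normalized. Of the probe sets, 28898 had 1 gene symbol in the platform annotation, 551 several and 15588 none. The brightest probe set of each symbol was kept, giving 17097 genes, and 36% of these had a mean intensity below 16. limma 3.58.1 (R 4.3.3) fitted 8 group means over the 36 arrays with a trended variance prior, and calls are Benjamini-Hochberg adjusted p under 0.05 within each comparison. Intervals are 95% and not adjusted. The labels do not say whether replicates are separate mice, so the p-values rest on a spread that may be technical. The number of arrays limits the precision. No 2 arrays held identical values. The steps were tested on simulated data. All members may be named; arrays are given singly for Myc and the 2 members of each role with the largest tumor difference, and up to 4 genes of a pathway list are named by the smallest p in the tumor comparisons. Ftsj3 and the single-array values of MYC partners were added after their values were seen. Replicate numbers shared between groups are not stated to pair mice. Same-numbered arrays deviated together in every pair for WT day 7 with untreated (correlations 0.164 to 0.398) and for KO with WT at day 15 (0.174 to 0.801), and a replicate block changed no count there.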

Additional observations from a re-analysis of the deposited data

Results flagged for a closer look

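Values of 13 genes were checked in 8 groups each, 104 sets of arrays. In 6 of them the highest or lowest array stood apart by Dixon's test at the 95% level, and chance flags about 1 in 20 sets. Nop56 (863) and Ddx21 (266) were high on KO tumor replicate 2, the array with the highest mean of the 35 genes. Npm1 was low (2111) and Utp20 high (282) on WT tumor replicate 6, the WT tumor array with the lowest mean of the 35 genes. Nhp2 was high (558) on KO day 7 replicate 1, whose Il17rc goes against its label. Myc was high (180) on KO day 15 replicate 1.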

How the results depend on the processing

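Each comparison was repeated under 49 alternatives, 36 of which left out 1 array. Of 87 calls of single genes, 62 held in every alternative, and no call reversed its direction in any of them. Counts of called genes that moved by over 1.5 times were those with few calls. At WT day 7 (1 gene) the count was 4 after median centring of the arrays or with no further normalization, 3 without both arrays labelled KO day 7 with high Il17rc, and 0 with only the groups compared, with the letter or the number of the title code as a block, or without the arrays with Krt5 above 100. At KO day 7 (1 gene) it was 3 with centring, 2 with no further normalization or with the mean of all probe sets, 4 without the Krt5 arrays or without both doubtful arrays, and 0 with a pseudocount of 16, the replicate block or either title block. Between KO and WT, Myc at day 7 made the count 1 with centring, no further normalization, dim genes left out or without the fourth arrays of day 15, and Ddx21 at day 15 made it 1 with centring, no further normalization or without the Krt5 arrays. For day 15 against day 7 (9 genes) it was 17 with centring or no further normalization, 15 without the Krt5 arrays, 5 with the title letter as a block, and 4 with only the groups compared or without the fourth day 15 arrays.

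Leaving out 1 array at a time gave 18 to 26 called genes in WT tumors and 16 to 25 in KO tumors, 29 to 32 for tumor against day 15 and 4 to 14 for day 15 against day 7 (14 without KO day 7 replicate 1, 4 without replicate 3 or 4 of that group). It gave 0 to 4 at day 7 in each genotype, and 0 to 1 at day 15 in each genotype, between KO and WT at day 7 and day 15, and for the interaction at day 7. The replicate block gave 24 calls in WT tumors and 24 in KO tumors. The causes were not tested. Dim genes near an intensity of 16 and bright ribosomal proteins limit what these arrays can show.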

Other observations

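Of the 35 genes, 20 had several probe sets, and for 16 more than 1 of them had a mean of 16 or more. None of these 16 had probe sets of opposite sign in the tumor comparisons. The other probe sets of Ddx21, Fbl, Nhp2, Nolc1, Nop10 and Rrs1 were also called in both genotypes. For Wdr43 in WT the second probe set was not called (0.36, limma adjusted p over all probe sets 0.152). Nor was that of Bysl in KO (0.34, 0.0725). The dim second probe sets of Ebna1bp2, Pes1, Wdr12 and Noc3l, with means of 16 to 18.1, were called in neither genotype. Nhp2's other probe set gave 0.97 in WT and 1.16 in KO, against 0.94 and 1.09 for the one used. Polr1a's second probe set gave 0.60 in WT (limma adjusted p over all probe sets 0.0266) and 0.42 in KO (0.15), so the genotype in which Polr1a is called depends on the probe set. Heatr1's other probe sets, with means of 15.6 and 10.3, gave -0.03 and -0.11 in WT.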
